A study of Homo sapiens with 9 samples.

Results

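The genes described here encode 4 of the DNA-binding subunits of the transcription factor NF-kappaB (*NFKB1*, *NFKB2*, *RELA* and *RELB*) and 5 proteins that restrain or modify the pathway (*NFKBIA*, *NFKBIE*, *NFKBIZ*, *TNFAIP3* and *BIRC3*). They were taken by name, from a list of pathway genes, and all 9 were found by Ensembl identifier among the 60664 genes listed for each sample. This list and the other pathway lists were chosen with earlier results of these data known. Shares called in them are therefore set beside those of all genes as a description only. RNA was sequenced from MDA-MB-231, a human line of mesenchymal appearance derived from breast cancer, kept for 6 days in medium of 0.77 cP, near that of water, or of 8 cP. Cells with a scramble hairpin (SC) were grown at each viscosity, and cells with a hairpin against *TRPV4* (shTRPV4), which encodes a calcium-permeable channel of the plasma membrane, were grown at 8 cP, giving 3 groups of 3 samples. All 9 samples thus carried a stably integrated pLKO.1 lentiviral vector, and the methods describe raising viscosity with methylcellulose, which the 0.77 cP medium lacked. The higher viscosity and the added polymer cannot be told apart, nor can loss of *TRPV4* and any other action of the hairpin. Knockdown cells at 0.77 cP were not analysed here, so the response to viscosity was measured in SC cells alone. The labels do not say whether replicates came from separate cultures, and p-values therefore measure the spread between these samples, which may be technical.

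In resting cells NF-kappaB dimers are held in the cytoplasm by IkappaB proteins, and in the canonical branch the IKK kinase complex marks IkappaB for destruction so that dimers containing RELA reach the nucleus. In the non-canonical branch the *NFKB2* product is cut to a shorter form that acts with RELB. Active NF-kappaB induces several of its own inhibitors, among them *NFKBIA* and *TNFAIP3*, so their RNA is widely used as a readout of the pathway, and MDA-MB-231 cells are known for constitutive NF-kappaB activity.

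Between 64571681 and 103518036 reads were assigned to genes in each sample, and each member was counted between 612 times (*TNFAIP3*) and 12250 times (*RELA*) in every sample. The 9 members therefore passed the filter on low counts in all groups, as did 18264 genes in total. *TRPV4* was read 40, 28 and 54 times in SC cells at 0.77 cP, 64, 45 and 24 times in SC cells at 8 cP, and 7, 1 and 13 times in shTRPV4 cells. The hairpin samples lay below all SC samples (log2 fold change −2.51 against SC at 8 cP, adjusted p = 0.00219, edgeR's quasi-likelihood test). Mitochondrial transcripts took 2.04 to 2.58% of counts at 0.77 cP and 2.23 to 2.44% in SC cells at 8 cP, but 3.28 to 3.40% in shTRPV4 cells, a shift whose part in the knockdown comparisons was not tested. Of the markers listed as low in this line, *ESR1*, *PGR* and *CDH1* were below 1 CPM (counts-per-million of the scaled library), while *ERBB2*, *EPCAM* and *GATA3* were not. Leukocyte markers summed to 11.6 to 12.9 CPM in SC cells at 0.77 cP, 10.3 to 11.5 CPM in SC cells at 8 cP and 7.83 to 8.59 CPM in shTRPV4 cells, and 4 of the 6 were below 1 CPM. Fibroblast and endothelial markers summed to 36.3 to 45.1, 23.1 to 27.6 and 19.8 to 23.0 CPM, in the same order, and 3 of the 6 were below 1 CPM. The part of either marker sum in the results was not tested.

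Because most of these genes are known NF-kappaB targets, the sequence just before the transcription start was searched for the 10-base kappaB consensus on both strands. RefSeq windows (GRCh38.p14) matched 7 of the 9 members, all but *RELB* and *NFKBIE*, and the window of 250 bases nearest the start of the main transcript was used for each. The consensus was present in 6 of these 7 windows, the exception being *RELA*, against 9.96% of 35114 windows of the same length over all genes. A looser pattern, GGG and CC with any 5 bases between them, was in all 7 windows and in 54.4% of all windows. The windows of the 5 members below are shown because they hold the consensus close to the start and cover genes that moved and genes that did not. Capitals mark the consensus, and each is printed 5′ to 3′ on the gene's own strand.

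*NFKBIA* chr14:35404750-35404999 (minus strand): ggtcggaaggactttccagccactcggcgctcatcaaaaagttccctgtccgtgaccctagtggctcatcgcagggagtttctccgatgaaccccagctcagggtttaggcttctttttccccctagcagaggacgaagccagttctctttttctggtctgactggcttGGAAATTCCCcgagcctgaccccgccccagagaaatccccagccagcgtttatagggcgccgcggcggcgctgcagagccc
*TNFAIP3* chr6:137867009-137867213 (plus strand): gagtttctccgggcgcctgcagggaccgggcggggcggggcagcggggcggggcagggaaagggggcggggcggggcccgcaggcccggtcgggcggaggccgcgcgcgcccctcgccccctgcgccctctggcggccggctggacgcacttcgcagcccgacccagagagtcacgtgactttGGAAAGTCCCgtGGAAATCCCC
*BIRC3* chr11:102317234-102317483 (plus strand): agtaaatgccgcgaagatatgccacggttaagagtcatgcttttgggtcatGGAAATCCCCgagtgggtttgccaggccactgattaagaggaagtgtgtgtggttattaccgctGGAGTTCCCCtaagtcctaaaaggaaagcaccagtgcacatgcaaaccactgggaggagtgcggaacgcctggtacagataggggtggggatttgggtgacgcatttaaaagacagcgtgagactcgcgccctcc
*NFKB2* chr10:102395455-102395704 (plus strand): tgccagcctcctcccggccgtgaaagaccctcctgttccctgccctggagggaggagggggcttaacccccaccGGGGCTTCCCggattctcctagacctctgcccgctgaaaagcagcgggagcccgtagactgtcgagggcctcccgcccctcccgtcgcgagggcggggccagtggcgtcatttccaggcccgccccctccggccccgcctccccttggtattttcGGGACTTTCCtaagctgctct
*NFKB1* chr4:102501109-102501358 (plus strand): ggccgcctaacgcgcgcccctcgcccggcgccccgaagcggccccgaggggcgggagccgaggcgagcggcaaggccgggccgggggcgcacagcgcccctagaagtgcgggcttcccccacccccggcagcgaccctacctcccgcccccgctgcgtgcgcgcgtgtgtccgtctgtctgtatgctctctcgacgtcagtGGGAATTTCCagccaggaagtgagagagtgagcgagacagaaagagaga

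The *NFKBIA* window held the consensus 81 bases before the start, and that of *NFKB1* held it 49 bases before. Read on the strand of the motif, both spelled GGGAATTTCC, the same 10 bases. *TNFAIP3* had matches 67 and 55 bases before its start, almost end to end, and its window is shown only up to the first annotated exon, over 205 bases. *BIRC3* had matches at 199 and 135 bases, and *NFKB2* at 176 and 21 bases, the latter GGGACTTTCC. The *NFKBIZ* window also held a match, at 239 bases. A match is a description of letters and not evidence that a factor bound there.

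**Figure D1:**
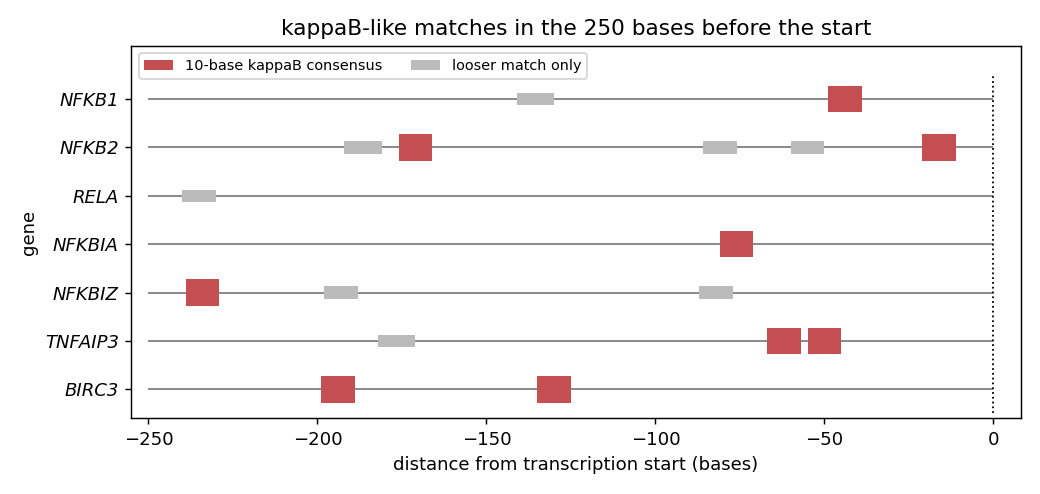
Position of kappaB-like matches in the 250 bases before the transcription start (x axis, bases from the start at 0) of the 7 members with a RefSeq window, with red boxes for the 10-base consensus and grey boxes for the looser pattern alone. *RELA* is the exception with no red box, and the *TNFAIP3* matches lie at 67 and 55 bases.

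Levels of the 9 genes were compared with each other as CPM per kilobase of the main transcript. In SC cells at 0.77 cP, *NFKBIA*, which encodes the main IkappaB protein, and *RELA*, which encodes the principal transactivating subunit, were highest, at 46.7 ± 4.93 and 46.1 ± 1.23 CPM per kilobase (SD, n = 3). Their samples overlapped, so their order is not resolved. *NFKB2* followed at 27.0 ± 0.778 and *NFKBIE* at 18.6 ± 0.406 CPM per kilobase, each apart from its neighbours in every sample. *RELB* at 11.0 ± 0.627, *NFKB1* at 9.96 ± 0.681 and *BIRC3* at 9.68 ± 1.38 CPM per kilobase overlapped one another. *NFKBIZ* at 4.32 ± 0.976 and *TNFAIP3* at 2.75 ± 0.132 CPM per kilobase were the lowest. In SC cells at 8 cP *RELA* stayed at 46.1 ± 1.28 CPM per kilobase while *NFKBIA* was at 31.6 ± 2.60, so that the ranges of these genes no longer overlapped. With the length of all exons in place of the main transcript, the rank of 6 genes moved.

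**Figure D2:**
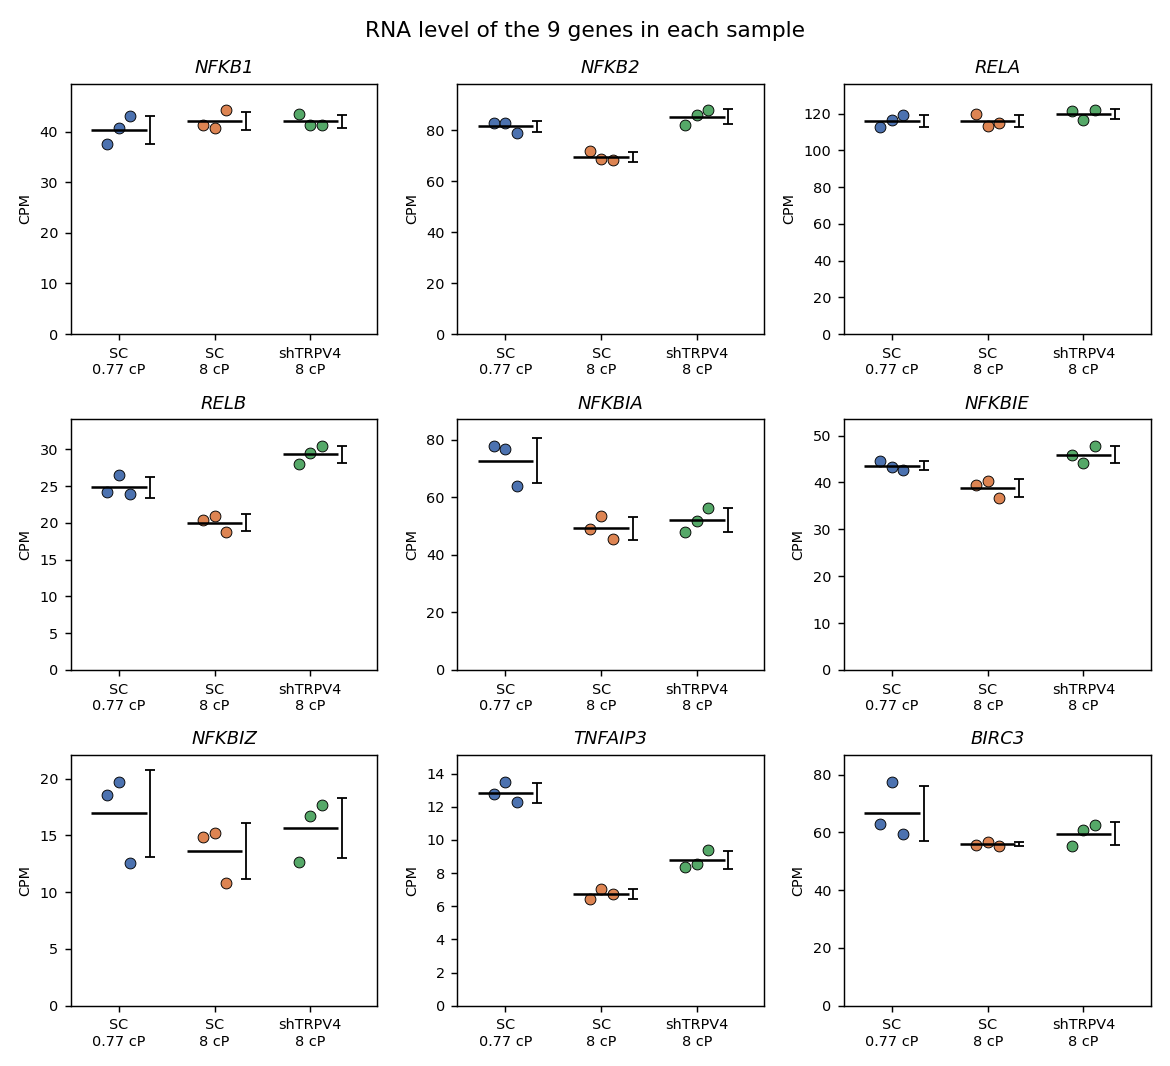
CPM of each gene (y axis, from 0) in each sample, grouped as SC at 0.77 cP, SC at 8 cP and shTRPV4 at 8 cP, where points are samples, horizontal lines are means and bars are ± 1 SD (n = 3). *TNFAIP3* in SC cells at 8 cP sits between 6.45 and 7.02 CPM, below the samples of the other groups, whereas *RELA* and *NFKB1* lie level across the groups.

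The comparison of SC cells at 8 cP with SC cells at 0.77 cP addresses what elevated viscosity did to these transcripts. Of the 9 members, 6 fell at 8 cP, none rose and 3 did not pass the test. Over all 18264 genes tested, 9.69% were called lower and 19.3% were called in either direction (adjusted p below 0.05, edgeR's quasi-likelihood test). The median log2 fold change of the members was −0.25, beside −0.0065 over all genes. In RNA from whole cultures, fewer cells expressing a gene and less RNA per cell cannot be told apart. The 5 genes that restrain or modify the pathway, grouped here as inhibitors, accounted for 4 of the 6 and the subunits for 2.

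*TNFAIP3* (ENSG00000118503, chr6:137867214-137883314, plus strand, GRCh38) encodes A20, the ubiquitin-editing enzyme that terminates signalling upstream of IKK. Its level was 12.75, 13.5 and 12.3 CPM at 0.77 cP and 6.45, 7.02 and 6.74 CPM at 8 cP. Every sample at 8 cP lay far below every sample at 0.77 cP. The log2 fold change was −0.93 (SE 0.075, 95% interval −1.09 to −0.768, adjusted p = 7.59e-07, edgeR's quasi-likelihood test), which was lower than that of all but 2.8% of genes. *NFKBIA* (ENSG00000100906, chr14:35401079-35404749, minus strand) encodes IkappaB-alpha, which enters the nucleus and removes NF-kappaB from DNA. It was read at 77.7, 76.6 and 63.9 CPM at 0.77 cP and at 48.9, 53.5 and 45.4 CPM at 8 cP. The groups did not overlap, although replicate 3 was the lowest in each. *NFKBIA* fell by 32.2% (log2 fold change −0.56, SE 0.079, 95% interval −0.728 to −0.394, adjusted p = 0.000345, edgeR).

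The remaining genes of this group had smaller estimates, although the interval of *NFKBIZ* includes the −0.56 of *NFKBIA*. *NFKBIE* (ENSG00000146232, chr6:44258166-44265788, minus strand) encodes IkappaB-epsilon, a further cytoplasmic inhibitor, and was at 44.6, 43.3 and 42.7 CPM at 0.77 cP and 39.4, 40.3 and 36.7 CPM at 8 cP. All 3 samples at 8 cP were lower, by 0.17 on average on the log2 scale (log2 fold change −0.17, SE 0.050, adjusted p = 0.0317, edgeR). That call was lost without replicate 1 or 2 of SC at 0.77 cP (adjusted p = 0.135 and 0.0886, edgeR) and without replicate 1 or 3 of SC at 8 cP (0.0691 and 0.194). *BIRC3* (ENSG00000023445, chr11:102317484-102339403, plus strand) encodes cIAP2, a ubiquitin ligase that acts at the TNF receptor and restrains the non-canonical branch. Its values were 62.9, 77.4 and 59.4 CPM at 0.77 cP, widely spread, and 55.8, 56.6 and 55.3 CPM at 8 cP, closely grouped. The groups lay side by side without overlap, with a log2 fold change of −0.25 (SE 0.077, adjusted p = 0.0342, edgeR). Without replicate 2 of SC at 0.77 cP this was −0.12 (adjusted p = 0.204), and the call was also lost without replicate 1 of that group (0.0642) or without replicate 1, 2 or 3 of SC at 8 cP (0.0915, 0.0769 and 0.117, edgeR). *NFKBIZ* (ENSG00000144802, chr3:101827991-101861022, plus strand) encodes the nuclear protein IkappaB-zeta, which acts with NF-kappaB at inflammatory genes such as *IL6*, and 194 of its exon bases are shared with *NXPE3*. It measured 18.6, 19.7 and 12.6 CPM at 0.77 cP and 14.9, 15.2 and 10.8 CPM at 8 cP. The groups overlapped through replicate 3 of SC at 0.77 cP, and the log2 fold change of −0.31 did not pass (95% interval −0.646 to 0.029, adjusted p = 0.191, edgeR). Without that replicate it was −0.48 with an adjusted p of 0.0189 (edgeR).

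Among the subunits, the non-canonical pair moved and the canonical pair did not pass the test. *RELB* (ENSG00000104856, chr19:45001461-45038192, plus strand), whose product pairs with that of *NFKB2*, was at 24.2, 26.5 and 23.9 CPM at 0.77 cP and 20.5, 20.9 and 18.8 CPM at 8 cP. The samples did not overlap, and the log2 fold change was −0.31 (SE 0.062, 95% interval −0.44 to −0.178, adjusted p = 0.00378, edgeR). *NFKB2* (ENSG00000077150, chr10:102394110-102402524, plus strand) encodes the p100 precursor, which in its uncut form also acts as an inhibitor. Its level was 82.7, 82.8 and 78.7 CPM at 0.77 cP and 71.8, 68.6 and 68.3 CPM at 8 cP, again without overlap. The log2 fold change was −0.23 (SE 0.045, 95% interval −0.323 to −0.131, adjusted p = 0.00378, edgeR). *RELA* (ENSG00000173039, chr11:65653599-65663090, minus strand) was at 112.9, 116.4 and 119.1 CPM at 0.77 cP and 119.7, 113.5 and 115.2 CPM at 8 cP. The groups interleaved, and the interval of the difference was −0.091 to 0.091 on the log2 scale (adjusted p = 0.998, edgeR). *NFKB1* (ENSG00000109320, chr4:102501330-102617302, plus strand), which encodes the p105 precursor of p50, the usual partner of RELA, was at 37.5, 40.6 and 43.0 CPM at 0.77 cP and 41.4, 40.8 and 44.2 CPM at 8 cP. These overlapped too, with an interval of −0.058 to 0.179 (adjusted p = 0.487, edgeR). Some exon bases lie opposite a gene on the other strand, 103 in *RELA*, 95 in *TNFAIP3* and 126 in *BIRC3*, and reads there could belong to either gene if strand was not used in counting.

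The comparison of shTRPV4 with SC cells at 8 cP addresses the part of TRPV4 at elevated viscosity. It shares the SC samples at 8 cP with the comparison above, so opposite signs in both are not independent, and the values are given side by side only. In shTRPV4 cells 4 of the 9 members were higher (*NFKB2*, *RELB*, *NFKBIE* and *TNFAIP3*), none was lower, and 5 did not pass. Over all genes 9.02% were called higher and 20.0% in either direction. The members' median log2 fold change was 0.20, beside 0.00065 over all genes.

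*RELB* had the largest difference of the 9. It was at 28.0, 29.5 and 30.4 CPM in shTRPV4 cells against 20.5, 20.9 and 18.8 CPM in SC cells at 8 cP. Every hairpin sample was well above every SC sample, and the mean was 1.46-fold higher (log2 fold change 0.55, SE 0.061, 95% interval 0.417 to 0.678, adjusted p = 1.81e-05, edgeR's quasi-likelihood test). *NFKB2*, which encodes the partner of RELB, was at 81.9, 86.0 and 87.7 CPM in shTRPV4 cells, all above the 68.3 to 71.8 CPM of SC cells at 8 cP (log2 fold change 0.29, SE 0.045, adjusted p = 0.000333, edgeR). *NFKBIE* was at 46.0, 44.1 and 47.7 CPM, again without overlap (0.24 on the log2 scale, SE 0.050, adjusted p = 0.00311, edgeR). *TNFAIP3* was at 8.37, 8.54 and 9.39 CPM in shTRPV4 cells, above the highest SC sample at 8 cP, 7.02 CPM. Its log2 fold change was 0.38 (SE 0.076, 95% interval 0.219 to 0.541, adjusted p = 0.00243, edgeR).

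*NFKBIA*, by contrast with its large difference between viscosities, overlapped between shTRPV4 and SC cells at 8 cP. Its values in shTRPV4 cells were 47.9, 51.7 and 56.3 CPM, and the log2 fold change was 0.077 (95% interval −0.090 to 0.245, adjusted p = 0.545, edgeR). *BIRC3* was at 55.2, 60.8 and 62.7 CPM and *NFKBIZ* at 12.7, 16.7 and 17.7 CPM, both overlapping SC cells at 8 cP (adjusted p = 0.457 and 0.418, edgeR). *RELA* was at 121.4, 116.5 and 121.8 CPM and *NFKB1* at 43.5, 41.3 and 41.3 CPM, and neither passed (adjusted p = 0.505 and 0.974, edgeR). Their intervals, −0.045 to 0.137 for *RELA* and −0.122 to 0.115 for *NFKB1*, leave out the size of the rise in *NFKB2*.

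Set against SC cells at 0.77 cP, shTRPV4 cells at 8 cP differed in both viscosity and hairpin. In this comparison 3 of the 9 members passed, 1 higher and 2 lower, beside 42.4% of all genes, 20.4% higher and 22.0% lower. The share of members was therefore not above the background. *RELB* was higher in shTRPV4 cells at 8 cP than in SC cells at 0.77 cP, 29.3 ± 1.22 against 24.9 ± 1.42 CPM (SD, n = 3), with no overlap (log2 fold change 0.24, SE 0.061, adjusted p = 0.00523, edgeR's quasi-likelihood test). *TNFAIP3* was lower, 8.77 ± 0.546 against 12.8 ± 0.616 CPM (log2 fold change −0.55, SE 0.074, adjusted p = 3.07e-05, edgeR). *NFKBIA* was lower as well, 52.0 ± 4.20 against 72.7 ± 7.68 CPM (log2 fold change −0.48, SE 0.079, adjusted p = 0.000151, edgeR). For *TNFAIP3* the 3 groups were thus ordered without overlap, SC at 8 cP lowest, shTRPV4 at 8 cP between and SC at 0.77 cP highest, whereas for *RELB* the shTRPV4 samples were the highest.

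*NFKB2* and *NFKBIE* in shTRPV4 cells overlapped SC cells at 0.77 cP. Their log2 fold changes were 0.066 (95% interval −0.030 to 0.162, adjusted p = 0.266) and 0.078 (−0.029 to 0.185, adjusted p = 0.236, edgeR). *BIRC3* also overlapped, at 59.6 ± 3.90 against 66.6 ± 9.52 CPM (SD, n = 3), with a log2 fold change of −0.16 (adjusted p = 0.113, edgeR). Without replicate 3 of SC at 0.77 cP it was −0.23, with an adjusted p of 0.0242 (edgeR). *NFKBIZ*, *NFKB1* and *RELA* did not pass either (adjusted p = 0.627, 0.447 and 0.421, edgeR).

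**Figure D3:**
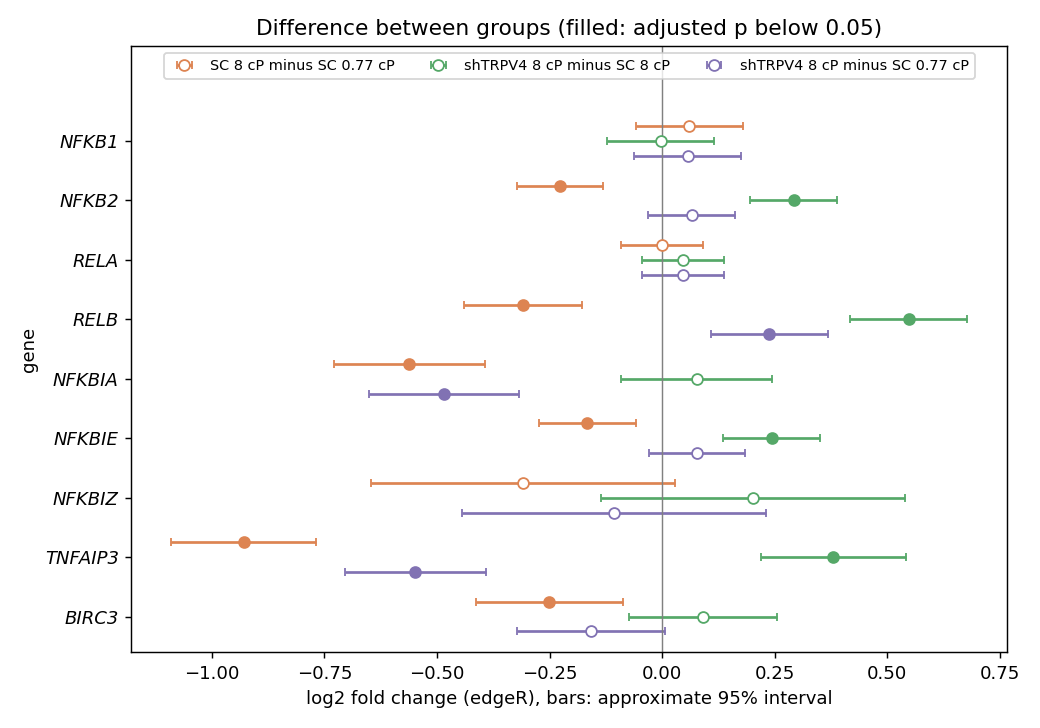
Log2 fold change of each gene (x axis) in the 3 comparisons, SC at 8 cP against SC at 0.77 cP, shTRPV4 against SC at 8 cP, and shTRPV4 at 8 cP against SC at 0.77 cP, with approximate 95% intervals as bars and filled points for adjusted p below 0.05 (edgeR). *TNFAIP3* and *NFKBIA* lie farthest to the left between viscosities, at −0.93 and −0.56, and *RELB* farthest to the right under the hairpin, at 0.55.

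Other genes of the pathway were examined in lists drawn up by role. Of 4 further Rel and IkappaB genes, 1 fell at 8 cP in SC cells and 1 was lower in shTRPV4 cells at 8 cP. Each is 25% of those tested, near the 19.3% and 20.0% of all genes. The gene that fell at 8 cP was *BCL3*, whose product is a nuclear IkappaB protein that works with p50 and p52. It went from 47.4 to 30.6 CPM (log2 fold change −0.63, adjusted p = 0.000744, edgeR's quasi-likelihood test). *REL*, which encodes the remaining transactivating subunit, was lower in shTRPV4 than in SC cells at 8 cP (log2 fold change −0.28, adjusted p = 0.035, edgeR). That call was lost without replicate 1 or 2 of SC at 8 cP and without replicate 1, 2 or 3 of shTRPV4, and 5702 of the 17129 exon bases of *REL* are shared with another gene on its strand. *NFKBIB*, which encodes IkappaB-beta, passed only in shTRPV4 at 8 cP against SC at 0.77 cP, where it was higher (0.28, adjusted p = 0.00369, edgeR). In that comparison all 4 of these genes passed, 2 higher and 2 lower, beside 42.4% of all genes.

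Among 12 IKK genes and related kinases, 2 rose and 1 fell between viscosities, and 1 was higher and 1 lower in shTRPV4 cells at 8 cP. These are 25% and 16.7% of those tested, near the 19.3% and 20.0% of all genes. Between viscosities the count was 1 rather than 3 without replicate 1 or 2 of SC at 0.77 cP, replicate 1, 2 or 3 of SC at 8 cP, or replicate 2 of shTRPV4, and for the hairpin it was 1 without replicate 1 of SC at 8 cP. *CHUK*, which encodes IKK-alpha, the kinase of the non-canonical branch, was higher at 8 cP (log2 fold change 0.26, adjusted p = 0.00701) and higher again in shTRPV4 cells (0.23, adjusted p = 0.0102, edgeR). *MAP3K7*, for the kinase TAK1, rose by 0.13 on the log2 scale (adjusted p = 0.043) and *IKBKE*, for an IKK-related kinase, fell by 0.20 (adjusted p = 0.0375, edgeR). *TAB1*, which encodes a partner of TAK1, was lower in shTRPV4 cells (−0.24, adjusted p = 0.00452, edgeR). Of 22 receptor and adaptor genes, 4 rose and 4 fell between viscosities, and 5 were higher and 7 lower in shTRPV4 cells, that is 36.4% and 54.5% of those tested beside 19.3% and 20.0% of all genes. The count of 8 between viscosities was 4 without replicate 1 or 2 of SC at 0.77 cP and 3 without replicate 3 of SC at 8 cP, and the count of 12 for the hairpin was 8 to 13 in the leave-one-out fits. *TNFRSF1B*, which encodes the inducible TNF receptor, was higher at 8 cP (0.42, adjusted p = 0.0011) and higher again under the hairpin (0.44, adjusted p = 0.000315, edgeR). *IL1R1*, for the interleukin-1 receptor, fell at 8 cP (−0.49, adjusted p = 0.00159), and *CD40*, for a receptor that feeds the non-canonical branch, fell too (−0.23, adjusted p = 0.00407, edgeR). *TNFRSF1A*, for the main TNF receptor, was lower in shTRPV4 cells (−0.32, adjusted p = 0.00083). *TLR4*, for the receptor of bacterial lipopolysaccharide, was also lower there (−1.09, adjusted p = 4.94e-09, edgeR), though it shares 678 exon bases with an overlapping gene on its strand.

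Of 13 ubiquitin regulators that work beside *TNFAIP3* and *BIRC3*, 1 rose and 2 fell between viscosities, and 1 was higher and 2 lower in shTRPV4 cells at 8 cP. Each is 23.1% of those tested, near the 19.3% and 20.0% of all genes. Between viscosities none was called without replicate 1 or 2 of SC at 0.77 cP or replicate 1 or 3 of SC at 8 cP, and for the hairpin 1 was called without replicate 1 or 2 of SC at 8 cP or replicate 1 or 2 of shTRPV4, and 2 without replicate 3 of SC at 8 cP. *TNIP1*, whose product binds A20 and works with it, fell at 8 cP (log2 fold change −0.20, adjusted p = 0.0255, edgeR's quasi-likelihood test). *CYLD*, for a deubiquitinase that opposes IKK activation, rose at 8 cP (0.19, adjusted p = 0.0312) and was higher again under the hairpin (0.36, adjusted p = 0.000409, edgeR). *RBCK1*, for a component of the linear ubiquitin ligase, fell at 8 cP (−0.17, adjusted p = 0.0428) although its groups overlapped, and was lower in shTRPV4 cells (−0.18, adjusted p = 0.0355, edgeR). *RNF11*, which encodes a subunit of the A20 complex, was lower in shTRPV4 cells too (−0.16, adjusted p = 0.0267, edgeR).

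Genes known to be induced by NF-kappaB moved mostly downwards at elevated viscosity. Of 30 listed, 29 were matched and 26 tested, and 17 of these fell at 8 cP in SC cells with none higher, at a median log2 fold change of −0.72 over those tested. That is 65.4% of them, beside 9.69% of all genes called lower, and 14 to 18 were called when each sample was left out in turn. *CSF2*, the gene of the cytokine GM-CSF, went from 22.2 ± 1.11 to 5.53 ± 0.457 CPM (SD, n = 3; log2 fold change −2.00, adjusted p = 1.62e-10, edgeR's quasi-likelihood test). *IL6*, the gene of an inflammatory cytokine, went from 29.3 ± 7.48 to 5.00 ± 0.326 CPM (−2.54, adjusted p = 3.82e-08, edgeR). *IER3*, an early response gene, went from 387 ± 27.8 to 210 ± 4.92 CPM (−0.88, adjusted p = 4.05e-08, edgeR). The samples of each did not overlap between viscosities. Exon bases shared with a gene on the other strand number 428 in *IL6* and 525 in *IER3*. In shTRPV4 cells against SC cells at 8 cP, 6 targets were higher and 2 lower, with a median of 0.14, or 30.8% called beside 20.0% of all genes. The count of 8 was 4 without replicate 1 of SC at 8 cP and 5 without replicate 3 of that group or replicate 2 of shTRPV4. The higher ones included *PTX3*, for a secreted pattern-recognition protein (0.48, adjusted p = 7.62e-05, edgeR), and *C3*, for the central complement protein (1.67, adjusted p = 5.11e-05, edgeR), although 1357 exon bases of *C3* are shared with another gene on its strand. *MMP9*, for a matrix protease, was also called, from 5, 3 and 3 reads in SC cells at 8 cP and 26, 23 and 20 reads in shTRPV4 cells. It is therefore given as reads only. Of the higher targets, only *TNFAIP2* and *C3* had fallen at 8 cP in SC cells, and the lower ones, *PTGS2* and *CX3CL1*, had fallen there too. *CSF2*, *IL6* and *IER3* did not pass between shTRPV4 and SC cells at 8 cP (adjusted p = 0.201, 0.084 and 0.608, edgeR). Against SC cells at 0.77 cP, shTRPV4 cells at 8 cP had 17 targets lower and 5 higher, where 22.0% and 20.4% of all genes were called, with *CSF2* at 6.19 ± 0.48 CPM and *IL6* at 6.72 ± 1.20 CPM (SD, n = 3).

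**Figure D4:**
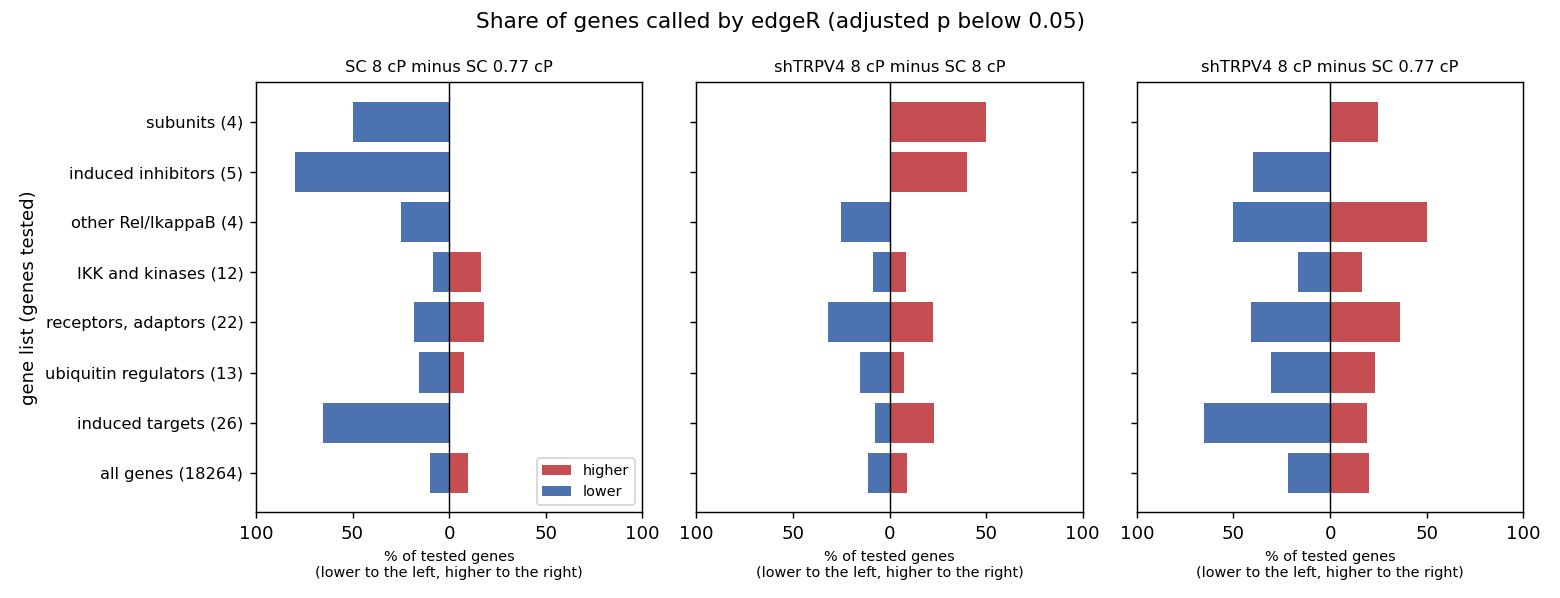
Percent of tested genes in each list (y axis, number tested in brackets) that were called lower (left) or higher (right) by edgeR at adjusted p below 0.05 in the 3 comparisons, with all 18264 genes at the bottom. Between viscosities the induced inhibitors (4 of 5) and induced targets (17 of 26) extend to the left, while kinases, receptors and ubiquitin regulators have genes on both sides.

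The genes whose levels followed the members most closely over the 9 samples were listed as a description, from 9445 genes with a mean of at least 10 CPM. For *NFKBIA* these were *NAT14*, *FCGRT* and *MR1*, with Pearson r of the log2 CPM between 0.984 and 0.985. For *NFKB2* they were *CHN1* (0.986), *CSPG4* (0.973) and *TMEM41B* (0.961). The samples share groups and normalisation, so these values are not a test.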

How the data were processed

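Poly(A) RNA libraries, strand-specific and paired-end, were aligned by the authors with HISAT2 2.2.1 to GRCh38.p13 and counted per Ensembl gene with HTSeq 0.13.5 (versions from the submitters' processing notes); the strand option used in counting is not given in the sources used here. The deposited values are raw counts per gene and sample, without normalisation. Blank lines (3 in all) were removed. Identifiers were mapped to symbols and positions with GENCODE release 44.

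Counts were scaled by TMM and tested with edgeR 4.0.16 (R 4.3.3): filterByExpr, a coefficient for each of the 3 groups over all 9 samples, quasi-likelihood test, Benjamini-Hochberg adjustment over all 18264 genes, threshold 0.05. CPM use the TMM library sizes. Intervals are the log2 fold change ± the t quantile times its SE. With 3 samples against 3, an exact permutation test cannot go below 0.1, so none is given. The members, the pathway lists and the promoter motif were chosen with earlier results of these data known. The 9 members are given in full. From each pathway list, up to 3 genes per comparison with the smallest adjusted p below 0.05 were eligible to be named. Exons shared with other genes were counted, since such reads may be assigned to either gene. Replicates were compared by chi-square over genes, and none was a repeat of another. On simulated counts for the viscosity comparison, 82.1% of 95 genes given a log2 difference of 1 were recovered, as were 60.4% of 101 genes given 0.5. Of 17744 unchanged genes, 14 (0.0789%) were called, beside 78 and 61 of the changed genes. False calls were therefore a larger share of the genes called there than the threshold of 0.05. A far smaller share of genes was changed there than the 19.3% called in the data, so recovery in the data may differ. Differences below 0.5 were not simulated. Alternatives were DESeq2 1.42.0, upper-quartile scaling, no filter, fitting the 6 compared samples alone, a minimum of 10 counts in all samples, a replicate block and leaving out each sample in turn. The length of all exons for the ranking per kilobase was added after the data were seen. Total counts were 64571681 to 103518036 per sample.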

Additional observations from a re-analysis of the deposited data

How the results depend on the processing

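Of the 27 differences (9 members in 3 comparisons), all 27 kept their side of the threshold with DESeq2, upper-quartile scaling, at least 10 counts in every sample and only the 6 samples compared, and 25 did with no filter, where *NFKBIZ* between viscosities (−0.31, adjusted p = 0.00108) and *BIRC3* in shTRPV4 at 8 cP against SC at 0.77 cP (−0.16, adjusted p = 0.0253) also passed by edgeR; the cause was not tested. No called difference changed sign, but 3 that did not pass changed sign in some of the 15 alternatives, namely *RELA* between viscosities (−0.014 to 0.029), *NFKB1* for the hairpin at 8 cP (−0.030 to 0.032) and *NFKBIZ* in shTRPV4 at 8 cP against SC at 0.77 cP (−0.28 to 0.027). The calls of *NFKB2*, *RELB*, *NFKBIA* and *TNFAIP3* held in all 15 alternatives. Leaving out each sample in turn, the members called ranged from 4 to 7 between viscosities, stayed at 4 for shTRPV4 against SC at 8 cP and ranged from 3 to 4 in the remaining comparison. The genes called among all tested ranged from 1409 to 4349 between viscosities and from 2179 to 3836 for the hairpin at 8 cP. They numbered 1409 without replicate 1 and 1927 without replicate 2 of SC at 0.77 cP, and 1418 without replicate 3 of SC at 8 cP; for the hairpin they numbered 2361 and 2179 without replicates 1 and 2 of SC at 8 cP. For the hairpin, 13 rather than 8 induced targets were called without the filter, and 4 to 10 when each sample was left out.

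With a replicate block the same 6, 4 and 3 members were called, and 3475, 3607 and 7731 of all genes. Deviations of samples of the same number correlated at −0.0546 to 0.0904 over 9 pairs, beside −0.106 to 0.115 over 18 pairs of unlike number. Between the SC groups alone, same-number pairs were at 0.0455, 0.032 and 0.0904, and unlike pairs at −0.0591 to 0.0167. Correlations this weak cannot decide whether the numbers pair the samples, and the main fit did not pair them.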

Other observations

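Within groups, the inhibitor genes tended to be lowest in the same library, a pattern looked for after the values were seen and not tested. How many of all genes were lowest in each library was not counted, so a shift of the whole library cannot be told apart. In SC cells at 0.77 cP, replicate 3 was the lowest for 5 of 5 inhibitors. The subunits were split in that replicate, where *NFKB2* and *RELB* were lowest but *RELA* and *NFKB1* highest. In SC cells at 8 cP, replicate 3 was the lowest for 4 of 5, the exception being *TNFAIP3*, which was lowest in replicate 1. In shTRPV4 cells, replicate 1 was the lowest for 4 of 5, the exception being *NFKBIE*. *NFKBIZ* had the widest range within SC cells at 0.77 cP relative to its mean, 12.6 to 19.7 CPM.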
